A study of Mus musculus with 2 samples.

Results

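The genes Xcl1, Xcr1, Flt3l, Flt3, Cxcl16 and Cxcr6, which carry signals between lymphocytes and dendritic cells, were followed across the immune cells of a mouse melanoma. They form 3 ligand and receptor pairs, Xcl1 with Xcr1, Flt3l with Flt3 and Cxcl16 with Cxcr6. They were chosen by name as these pairs, although earlier results of these data were known. They are 6 of the 55450 genes in the count matrices. All 6 were detected in both libraries.

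The KO library came from Lyz2-Cre Kcnj2f/f mice and the WT library from Kcnj2f/f mice. Both kinds of mice carry the floxed Kcnj2 allele, and Cre recombinase, expressed from the Lyz2 locus in macrophages, monocytes and neutrophils, is what the KO mice have in addition. Kcnj2 encodes the inwardly rectifying potassium channel Kir2.1, and the labels give the impact of this gene on the tumour microenvironment as the question of the study. B16F10 cells, a transplantable melanoma line, had been placed under the skin, tumours were taken on day 10, and CD45+ cells (cells with the pan-leukocyte surface protein) were sorted for single-cell RNA sequencing. Tumours of 3 mice were pooled into 1 library for each genotype. A difference between KO and WT below is therefore one between 2 libraries, and no p-value could be computed.

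XCL1 is a chemokine made by natural killer (NK) cells and activated CD8 T cells, and its receptor XCR1 is carried by type 1 conventional dendritic cells (cDC1), which present antigen of dead tumour cells to CD8 T cells. FLT3 ligand is the growth factor on which dendritic cells depend, and FLT3 is the receptor tyrosine kinase through which their progenitors and mature forms receive it. CXCL16 is a chemokine made as a transmembrane protein by dendritic cells and macrophages, from which it can be shed, and it also acts as a scavenger receptor. CXCR6, its receptor, is found on effector and tissue-resident T cells, on some NK cells and on innate-like lymphocytes.

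The libraries held 6356 KO and 9677 WT barcodes, with 57047535 and 55219440 unique molecular identifiers (UMIs, 1 per captured transcript molecule). After filtering, 5686 KO cells with a median of 8013 UMIs and 8936 WT cells with a median of 4398.5 UMIs remained in 28 clusters, of which 5 with 608 KO and 1787 WT cells stayed unnamed. The libraries shared 63 barcodes, 0.991% of the KO and 0.651% of the WT barcodes. Classes are named with the suffix -like because they rest on marker genes alone. Kcnj2 had 84 UMIs in 907 KO macrophage-like cells and 111 UMIs in 574 WT macrophage-like cells, with a log2 ratio of -1.31 (-1.74 to -0.89); which part of the gene is deleted is not given in the labels, so remaining transcript ends at the 3' side would still be counted. Lyz2, the locus that holds Cre, had a log2 ratio of -2.36 in the same cells.

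The classes that carry the 6 genes made up different shares of the libraries. NK cell-like cells were 5.52% of KO cells and 3.95% of WT cells, CD8 T cell-like cells were 5.14% and 15.7%, and all T cell-like cells together were 14.8% and 26.3%. cDC1-like cells were 5.93% of KO cells and 2.25% of WT cells, and cDC1-like, type 2 (cDC2-like) and migratory dendritic cell (DC)-like cells together were 34.7% of KO cells and 13.4% of WT cells. Macrophage-like cells were 16.0% of KO cells and 6.42% of WT cells, whereas B cell-like cells were 6.86% and 20.4%. With 1 library per genotype, whether these shares vary as much between mice cannot be told.

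Levels within a class are given in CPM, the usual scale on which the counts of a gene are divided by all UMIs of that class, with exact Poisson 95% intervals in parentheses. A log2 ratio is KO over WT, with an exact conditional binomial 95% interval. These intervals cover counting error only, and not the spread between mice or libraries. A gene was called higher or lower in KO when it had at least 20 UMIs over both libraries in the class, a log2 ratio of at least 0.5 or at most -0.5, and an interval on that side of 0. The share of all tested genes called by the same rule is given as the background.

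All 6 genes are protein-coding, and their places on GRCm38 were taken from GENCODE M21. Xcl1 spans 164931644 to 164935527 on chromosome 1, with 3 exons on the minus strand, and lies wholly inside the antisense transcript Gm20743. Xcr1 spans 123852315 to 123862029 on chromosome 9 on the minus strand, and Cxcr6 spans 123806475 to 123811760 on the same chromosome on the plus strand. The receptor genes lie 40.6 kb apart, and Cxcr6 sits inside Fyco1, which runs on the opposite strand and extends into the space between them. Flt3 spans 147330741 to 147400489 on chromosome 5 on the minus strand. Cxcl16 spans 70453983 to 70459984 on chromosome 11 on the minus strand, and 552 bases of it overlap Zmynd15 on the opposite strand. Flt3l spans 45129788 to 45136432 on chromosome 7 on the minus strand and shares 6444 bases with the same-strand gene model Gm45713, so that its counts are uncertain wherever reads could have been assigned to either.

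**Figure D1:**
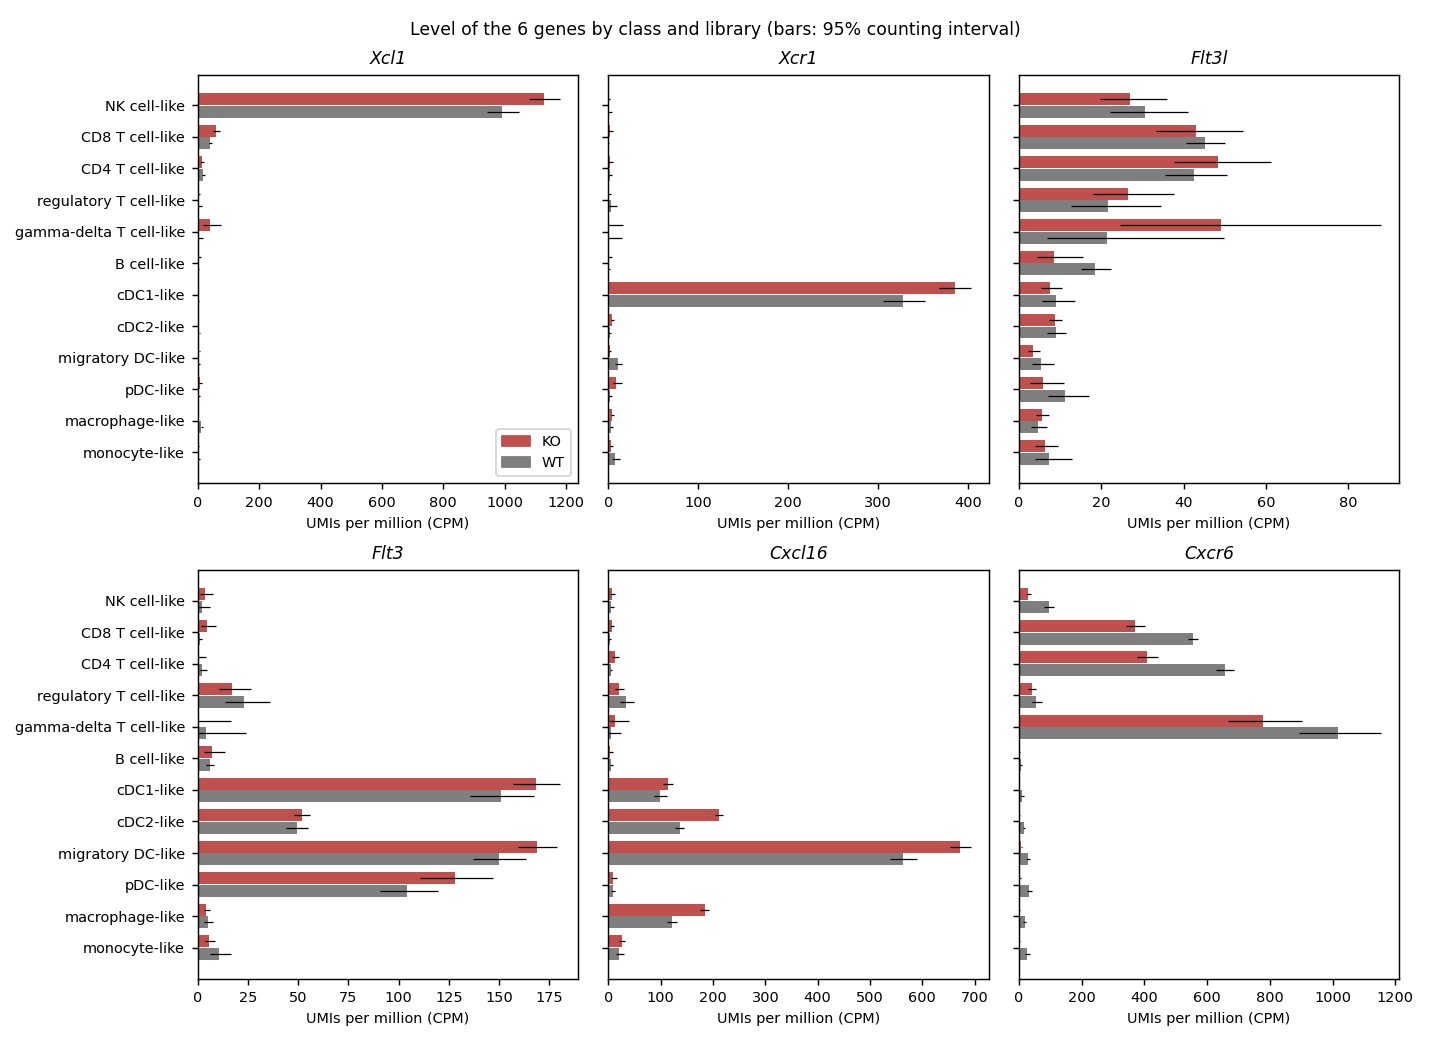
Level of each gene (CPM, x axis, with a scale of its own in each panel) in 12 classes, with KO above WT and 95% counting intervals as lines. Xcl1 stands out in NK cell-like cells, Xcr1 in cDC1-like cells, Cxcl16 in migratory DC-like cells and Cxcr6 in 3 T cell-like classes, while Flt3l and Flt3 are spread over several classes.

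Xcl1 was above all an NK cell-like transcript in both libraries. KO NK cell-like cells held 1885 UMIs in 314 cells, or 1128 CPM (1078 to 1180), and WT NK cell-like cells held 1430 UMIs in 353 cells, or 992 CPM (941 to 1045). The log2 ratio was 0.19 (0.09 to 0.29), short of the limit for a call. The next class, CD8 T cell-like cells, had 60.2 CPM in KO and 40.8 CPM in WT, and the intervals of these classes lay apart in both libraries. B cell-like cells, which should lack Xcl1, had 3.93 CPM in KO and 2.02 CPM in WT.

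Within NK cell-like cells the gene was uneven from cell to cell. At least 1 Xcl1 UMI was found in 59.6% of KO (53.9 to 65.0) and 50.4% of WT (45.1 to 55.8) NK cell-like cells, against 1.03% of KO and 0.604% of WT B cell-like cells. The median depths were 4548 and 3604 UMIs in the NK cell-like cells and 3148.5 and 2435 UMIs in the B cell-like cells. When each cell was thinned to 2000 UMIs, leaving out 38 KO and 80 WT cells, the NK cell-like shares were 50.4% in KO and 46.1% in WT, with overlapping intervals. At least 20 Xcl1 UMIs were held by 21 of 314 KO cells (6.69%) and 15 of 353 WT cells (4.25%). The 5 cells with the most Xcl1 held 25.5% of the KO and 34.5% of the WT UMIs, and a single cell reached 163 UMIs in KO and 161 UMIs in WT. Without those 5 cells of each library the log2 ratio was 0.40 (0.28 to 0.52).

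CD8 T cell-like cells held Xcl1 in a minority of cells, and its level there was called higher in KO, a call that was lost under several alternatives. The KO cells had 94 UMIs in 33 of 292 cells and the WT cells had 319 UMIs in 129 of 1399 cells, which gave a log2 ratio of 0.56 (0.21 to 0.90). Of the 4 members tested in this class 1 was called higher, where 5.07% of all tested genes were, and 1, Cxcr6, was called lower, where 3.57% were. Few cells carried this difference. The 5 highest cells held 51.1% of the KO and 35.7% of the WT UMIs; without them the log2 ratio was 0.19 (-0.30 to 0.66). At a mitochondrial limit of 10% it was 0.40 (0.04 to 0.74), and with each cell thinned to 1000 UMIs 0.10 (-0.90 to 0.98), both short of a call, while joining the unnamed clusters to their highest-scoring class, an alternative chosen after seeing the data, gave 1.28 (1.18 to 1.38). Cells of the class that held no UMI of the NK cell genes Ncr1, Klrb1c, Klre1 or Klra8 had 67.0 CPM in KO and 42.3 CPM in WT, and a log2 ratio of 0.66. The 2 clusters of the class differed in size between libraries: a small one led by the interferon-response genes Ifit3 and Ifit1 held 12.7% of the KO and 5.93% of the WT cells, and its Xcl1 log2 ratio was 2.43 (1.34 to 3.60), against 0.28 (-0.11 to 0.66) in the larger one, led by Cd8b1 and Gzmk. In the small cluster the 24 KO UMIs lay in 2 of 37 cells and the 11 WT UMIs in 8 of 83, so that the share of cells with Xcl1 was 5.41% in KO and 9.64% in WT.

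Much of the Xcl1 RNA lay outside any named class, in dividing cells. A cluster led by cell cycle genes such as Pclaf and Mki67 held 185 KO cells with 1378 Xcl1 UMIs and 392 WT cells with 1358 Xcl1 UMIs. Almost all of these UMIs were in cells that also had a UMI of Cd3d, Cd3e, Cd3g or Trac together with Cd8a or Cd8b1, the genes of the T cell receptor complex and the CD8 co-receptor, namely 98.2% in KO and 96.7% in WT. In those cells the level was 705 CPM (668 to 744) in 110 KO cells and 469 CPM (444 to 496) in 302 WT cells, and Xcl1 was present in 36 and 79 of them. These dividing CD8-positive cells thus had over 10 times the Xcl1 level of the named CD8 T cell-like class in each library. Some of them also carried NK cell genes: cells with a Cd3 or Trac UMI and a UMI of Ncr1, Klrb1c, Klre1 or Klra8 held 61.0% of the KO and 45.9% of the WT Xcl1 UMIs of the cluster, so that the lineage of these cells cannot be told from the markers. The median depth of the cluster was 14574 UMIs in KO and 7299.5 UMIs in WT, and its 5 highest Xcl1 cells of those with Cd3 or Trac held 47.1% of the KO and 42.4% of the WT UMIs.

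Elsewhere Xcl1 was scarce. A small T cell-like cluster led by Igfbp4 and Lef1 had 55 UMIs in KO and 16 UMIs in WT, a log2 ratio of 3.22 that was called higher (background 2.86%). The KO UMIs lay in 3 of 38 cells, and 51 of them in 1 cell. Macrophage-like cells had 9 UMIs in 6 KO cells and 59 UMIs in 12 WT cells, called lower with a log2 ratio of -3.62 where 6.43% of all tested genes were. Among macrophage-like cells with no UMI of the Cd3 genes, Trac or the 4 NK cell genes, Xcl1 had 4 UMIs in KO and 5 UMIs in WT. The cDC2-like log2 ratio of -1.96, called lower where 5.79% of all tested genes were, rested on 17 KO and 32 WT UMIs and was -0.21 (-1.85 to 1.67) in the cells with no such marker UMI. In WT, 54 of the 59 macrophage-like and 27 of the 32 cDC2-like UMIs were in cells that also held a lymphocyte marker, against 5 of 9 and 6 of 17 in KO. Migratory DC-like cells went the other way, with 38 KO and 12 WT UMIs and a log2 ratio of 0.62, not called. Their Fscn1-led cluster, with 36 and 5 UMIs, was beyond the limit at 1.77 (0.415 to 3.48), while the Cacnb3-led one had 2 and 7. Plasmacytoid DC-like cells had 12 KO and 8 WT UMIs and a log2 ratio of 0.92, not called.

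Xcr1 was concentrated in cDC1-like cells. KO cDC1-like cells had 385 CPM (368 to 403), with 1888 UMIs in 337 cells, and WT cDC1-like cells had 328 CPM (305 to 352), with 769 UMIs in 201 cells. The log2 ratio of 0.23 (0.11 to 0.35) was not called, and neither was any other member in this class except Cxcr6, which was lower where 3.17% of all tested genes were called lower. Every other named class with at least 50 cells in each library was at or below 8.998 CPM in KO and 11.03 CPM in WT. Xcr1 thus separated this class from its neighbours by more than counting error in both libraries.

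Receptor detection in cDC1-like cells was incomplete at this depth. An Xcr1 UMI was found in 70.9% of KO (65.8 to 75.7) and 66.2% of WT (59.2 to 72.7) cells, against 0.256% of KO and 0.165% of WT B cell-like cells. The median cDC1-like cell had 15491 UMIs in KO and 11892 UMIs in WT. At least 20 Xcr1 UMIs were held by 7.72% of the KO and 3.98% of the WT cDC1-like cells. Thinned to 2000 UMIs, the shares were 43.9% in KO and 35.96% in WT, with intervals of 38.4 to 49.5 and 28.9 to 43.5. The cDC1-like cells without an Xcr1 UMI were the shallower ones, with median depths of 7716.5 UMIs in KO and 6987.5 UMIs in WT, against 17837 and 15396 UMIs in the cells with one. The marker genes of cDC1 summed to 4594 CPM in KO and 4336 CPM in WT, with 0 of 8 called in either direction.

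Xcr1 counts were low in other dendritic cells, and some lay largely in 1 cell. In migratory DC-like cells Xcr1 had 14 UMIs in KO and 37 UMIs in WT, called lower with a log2 ratio of -2.44 where 7.33% of all tested genes were called lower, and 1 WT cell held 31 of these UMIs, while the KO UMIs lay in 13 cells. In cDC2-like cells it had 63 UMIs in KO and 13 UMIs in WT, called higher with a log2 ratio of 1.23, and 26 of the KO UMIs were in 1 of the 21 cells that held any. In the dividing cluster Xcr1 had 159 UMIs in KO and 205 UMIs in WT, mostly in cells with a UMI of the cDC1 genes Clec9a, Naaa or Wdfy4 and none of the lymphocyte markers, which held 67.9% of the KO and 81.0% of the WT UMIs. There its level was 155 CPM (127 to 187) in 35 KO cells and 437 CPM (373 to 508) in 18 WT cells. These cells were selected by single marker UMIs in a cluster with median depths of 14574 UMIs in KO and 7299.5 UMIs in WT. The part of depth in which cells were selected was not tested.

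Flt3l was low and broad. Over all T cell-like cells it had 184 UMIs in 839 KO cells, or 40.5 CPM (34.8 to 46.8), and 516 UMIs in 2346 WT cells, or 42.0 CPM (38.4 to 45.7). The log2 ratio was -0.05 (-0.30 to 0.20), with an interval wholly inside the limits of -0.5 and 0.5. CD4 T cell-like cells had 48.4 CPM in KO and 42.5 CPM in WT, and CD8 T cell-like cells had 42.9 CPM in KO and 45.2 CPM in WT. NK cell-like cells had 26.9 CPM in KO and 30.5 CPM in WT, and regulatory T cell-like cells had 26.5 and 21.6 CPM. The order of the leading T cell-like classes differed between the libraries, and their intervals overlapped.

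No cell held more than 4 Flt3l UMIs among the T cell-like cells, and most cells with any had 1. A UMI was found in 19.1% of KO and 18.8% of WT T cell-like cells, and in 7.96% and 8.08% after thinning to 2000 UMIs. In B cell-like cells the share was 2.82% in KO and 5.22% in WT, with 11 and 100 UMIs, and this was the only one of 11 classes tested in which Flt3l was called, at a log2 ratio of -1.09 (background 7.17% called lower). Among myeloid and dendritic classes with at least 50 cells in each library the level ran from 3.34 CPM in migratory DC-like cells to 8.76 CPM in cDC2-like cells in KO, and from 4.56 CPM in macrophage-like cells to 11.2 CPM in plasmacytoid DC (pDC)-like cells in WT.

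Flt3 was read in every dendritic class, and in none of the 8 named classes tested was it called. cDC1-like cells had 168 CPM (157 to 180) in KO and 151 CPM (136 to 168) in WT, and migratory DC-like cells had 169 CPM (159 to 179) in KO and 150 CPM (137 to 163) in WT, so that these classes did not differ beyond counting error. pDC-like cells had 128 CPM in KO and 104 CPM in WT, and cDC2-like cells had 51.9 CPM in KO and 49.2 CPM in WT, each apart from the class above in both libraries. Over cDC1-like, cDC2-like and migratory DC-like cells together the level was 105 CPM (102 to 110) in 1972 KO cells and 95.5 CPM (90.2 to 101) in 1201 WT cells. The log2 ratio was 0.14 (0.04 to 0.24).

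Among the other named classes the receptor was scarce. Macrophage-like cells had 4.31 CPM in KO and 4.98 CPM in WT, and B cell-like cells had 7.08 and 5.89 CPM. Regulatory T cell-like cells stood somewhat above these with 17.1 CPM (10.5 to 26.4) in KO and 22.9 CPM (13.6 to 36.2) in WT, from 20 and 18 UMIs in 11 cells of each library. A Flt3 UMI was found in 77.4% of KO and 71.1% of WT cDC1-like cells, and in 28.5% and 31.5% after thinning to 2000 UMIs, against 1.21% and 1.02% of thinned B cell-like cells. The higher unthinned share in KO cDC1-like cells was not seen at equal depth. In migratory DC-like cells the thinned shares were 31.0% (27.4 to 34.9) in KO and 23.3% (19.1 to 28.0) in WT, with overlapping intervals. The unnamed dividing cluster had 136 Flt3 UMIs and 43.55 CPM in KO, and 89 UMIs and 23.6 CPM in WT. Its log2 ratio of 0.88 (0.49 to 1.29) was beyond the limit for a call. Cells with a cDC1 gene and no lymphocyte marker held 64.7% of these KO and 47.2% of these WT UMIs. The part of the cluster's make-up was not tested.

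The cDC2-like class fell into clusters that differed sharply in both Flt3 and Cxcl16. A cluster led by Cd209d and Apod held 18.7% of the KO and 25.6% of the WT cells of the class, and the rest were in a cluster led by Cd209a and Mgl2, genes of C-type lectins that mark cDC2. Flt3 had 130 CPM (116 to 145) in KO and 86.7 CPM (72.7 to 102) in WT in the Cd209d-led cluster, but 35.97 CPM (32.6 to 39.6) and 37.8 CPM (32.7 to 43.5) in the Cd209a-led one. Cxcl16 ran the other way, with 17.4 CPM (12.5 to 23.6) in KO and 5.74 CPM (2.62 to 10.9) in WT in the Cd209d-led cluster and 251 CPM (242 to 261) and 176 CPM (165 to 188) in the Cd209a-led one. The opposite order of these genes held in each library. Between the libraries, the log2 ratio of Flt3 was 0.58 (0.29 to 0.89) in the Cd209d-led cluster, beyond the limit for a call. In the Cd209a-led cluster it was -0.07 (-0.32 to 0.18). The clusters were defined from the same cells, although without these 6 genes, and the contrast between them is a description.

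**Figure D2:**
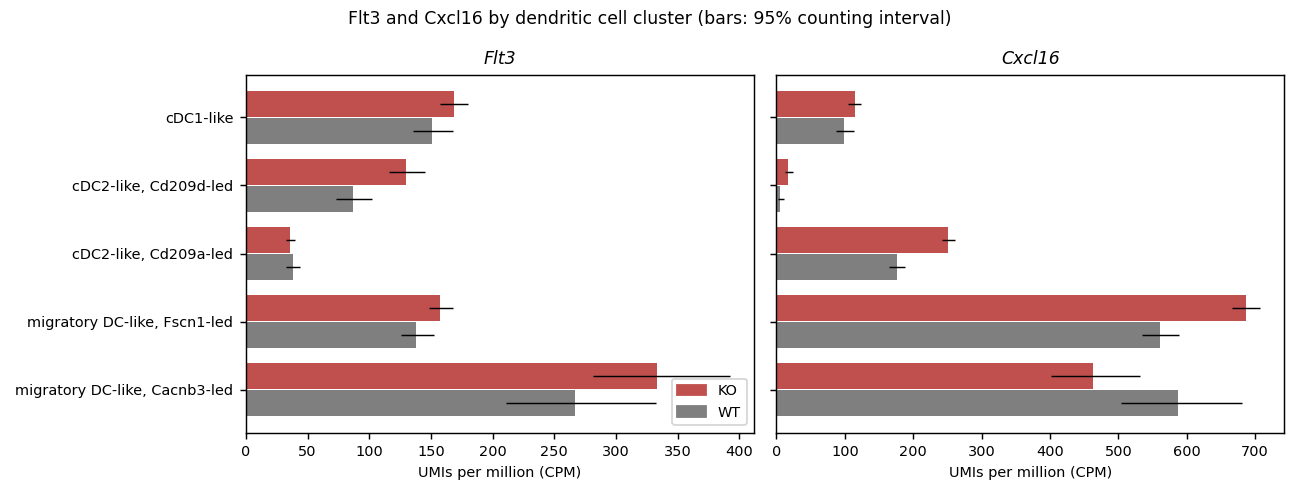
Flt3 (left) and Cxcl16 (right) in 5 clusters of dendritic cells (CPM, x axis), with KO above WT and 95% counting intervals as lines. The Cd209d-led cDC2-like cluster is high in Flt3 and low in Cxcl16, and the Cd209a-led one is low in Flt3 (35.97 CPM in KO, 37.8 CPM in WT) and high in Cxcl16.

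Over both cDC2-like clusters together, cells with a Cxcl16 UMI less often held Flt3. These shares were not taken within each cluster, so they also carry the contrast between the clusters. A Flt3 UMI was found in 28.9% of 543 KO and 22.2% of 234 WT cDC2-like cells with a Cxcl16 UMI, against 49.4% and 42.1% of the cDC2-like cells without one. The cells with Cxcl16 were the deeper ones, with median depths of 15133 UMIs in KO and 12906 UMIs in WT, against 12460 and 10269 UMIs. In cDC1-like cells the order was the reverse, since Flt3 was found in 81.5% of KO and 80.0% of WT cells with Cxcl16 and in 71.5% and 62.4% of those without, but there the cells with Cxcl16 had median depths of 17866.5 and 16238 UMIs against 11331 and 6415 UMIs.

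Cxcl16 was highest in migratory DC-like cells and was called higher in KO in cDC2-like and macrophage-like cells. Migratory DC-like cells had 673 CPM (654 to 692) in KO and 563 CPM (538 to 589) in WT, with a log2 ratio of 0.26 (0.18 to 0.33) that did not reach the limit. The clusters of this class went opposite ways, and neither reached the limit. The log2 ratio was 0.29 (0.21 to 0.37) in the Fscn1-led and -0.34 (-0.64 to -0.04) in the Cacnb3-led cluster. Cells with at least 20 Cxcl16 UMIs made up 6.78% of the KO and 1.64% of the WT cells of this class, at median depths of 10758 and 7998.5 UMIs. cDC2-like cells had 2946 UMIs and 212 CPM (204 to 219) in KO and 917 UMIs and 136 CPM (128 to 146) in WT, a log2 ratio of 0.63 (0.53 to 0.74). Of the 5 other members, Xcr1 was also called higher in this class, where 4.25% of all tested genes were, and Xcl1 and Cxcr6 were called lower, where 5.79% were. The level also differed within each cDC2-like cluster, with log2 ratios of 0.51 (0.41 to 0.62) in the Cd209a-led and 1.6 (0.54 to 2.83) in the Cd209d-led one. The 10 genes that mark migratory DC summed to 447 CPM in KO and 284 CPM in WT cDC2-like cells, with 4 of 10 called higher and Apol7c at 0 in WT, and their part in the Cxcl16 difference was not tested.

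In macrophage-like cells, among the classes in which Cre is expected to act, Cxcl16 had 1665 UMIs in 907 KO cells, or 184 CPM (175 to 193), and 588 UMIs in 574 WT cells, or 122 CPM (112 to 132). The log2 ratio was 0.59 (0.46 to 0.73), and 6.64% of all genes tested in this class were called higher. A UMI was found in 51.6% of KO (48.3 to 54.9) and 41.1% of WT (37.1 to 45.3) cells, and in 24.4% (21.6 to 27.5) and 18.3% (15.04 to 21.9) after thinning to 2000 UMIs, against 0.606% and 0.647% of thinned B cell-like cells. The 5 highest cells held 8.29% of the KO and 8.67% of the WT UMIs, so that the difference did not lie in a few cells. The call was lost with Leiden resolution 0.6, which left 50 KO and 64 WT cells in the class and a log2 ratio of 0.54 (-0.03 to 1.13), and with the members among the variable genes, which left 49 and 64 cells and 0.56 (-0.03 to 1.17). Equal weight for each cell gave 0.48 and thinning to 1000 UMIs 0.46, just under the limit. The macrophage marker genes summed to 5222 CPM in both libraries, with 2 of 10 called higher and 1 lower. The migratory DC genes summed to 100 CPM in KO and 77.1 CPM in WT, with 1 of 10 called in each direction, and their part was not tested.

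Monocyte-like cells had far less Cxcl16 than macrophage-like cells in each library, 26.2 CPM (21.0 to 32.2) in KO and 20.8 CPM (14.4 to 29.1) in WT, and were not called. Taken with the macrophage-like cells, an alternative chosen after seeing the data because other clusterings joined these classes, they gave 141 CPM in KO and 96.4 CPM in WT and a log2 ratio of 0.55 (0.42 to 0.68). cDC1-like cells had 114 CPM (105 to 124) in KO and 99.4 CPM (87.1 to 113) in WT, with a log2 ratio of 0.20 (-0.02 to 0.43). The macrophage-like cells thus stood between cDC2-like and cDC1-like cells, and in WT their intervals overlapped with both. In the unnamed dividing cluster Cxcl16 had 131 UMIs in KO and 95 UMIs in WT. Its log2 ratio of 0.735 (0.343 to 1.13) was beyond the limit for a call, and the part of the cluster's make-up was not tested.

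T cell-like cells held little of this ligand. CD4 T cell-like cells had 18 UMIs in KO and 13 UMIs in WT, called higher at a log2 ratio of 1.55 (background 4.14%), and macrophage marker genes in the same cells summed to 70.8 CPM in KO and 46.2 CPM in WT, with 2 of 10 called higher and Mrc1 at 0 in WT. The part of such RNA in this difference was not tested. Over all T cell-like cells Cxcl16 had 56 UMIs in KO and 72 UMIs in WT, with a log2 ratio of 1.07, and Flt3 had 28 UMIs in KO and 37 UMIs in WT, with a log2 ratio of 1.03. Both were called higher there, where 10.2% of all tested genes were, but the sums also carry the make-up of the T cell-like cells. Regulatory T cell-like cells, 128 of 839 KO and 91 of 2346 WT T cell-like cells, held 20 of the 28 KO and 18 of the 37 WT Flt3 UMIs and 23 of the 56 KO and 26 of the 72 WT Cxcl16 UMIs. Within them the log2 ratios had the other sign, -0.42 (-1.41 to 0.58) for Flt3 and -0.75 (-1.63 to 0.12) for Cxcl16, and were not called. In all T cell-like cells the cDC2 marker genes summed to 180.6 CPM in KO and 79.35 CPM in WT, with 5 of 8 called higher and 1 lower, and the migratory DC genes to 166.5 CPM in KO and 107.7 CPM in WT, with 5 of 10 called higher and 1 lower. The part of these markers was not tested. Melanoma-like cells had 14 UMIs in KO and 27 UMIs in WT, called lower at -1.23 where 8.32% of all tested genes were and the median log2 ratio of all genes was 0.18.

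**Figure D3:**
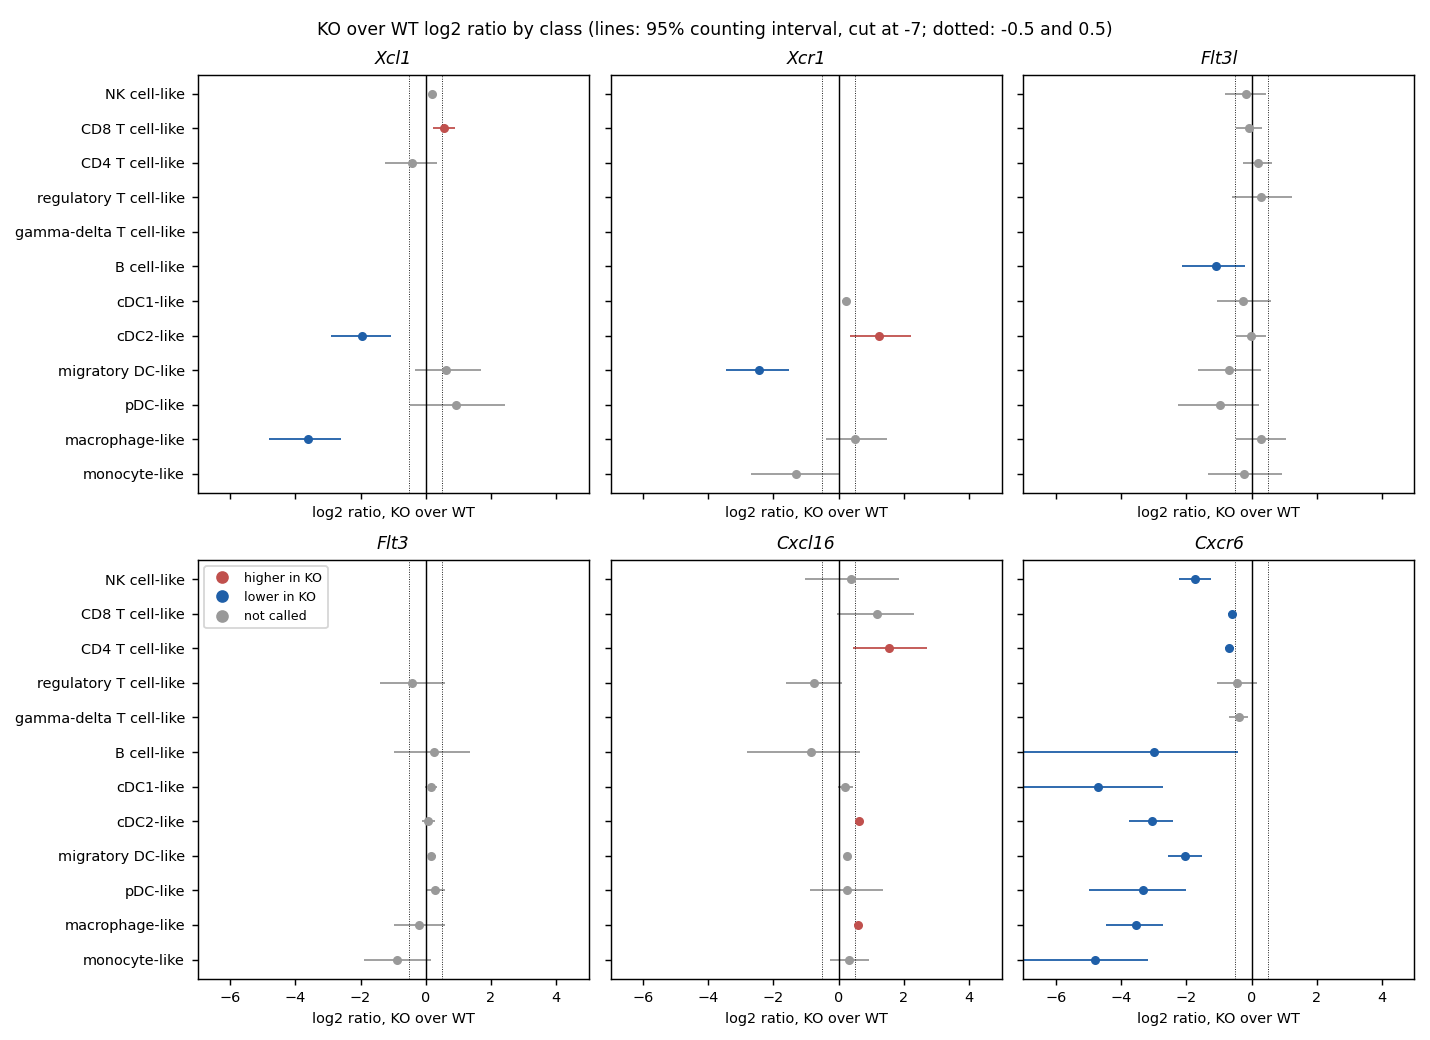
KO over WT log2 ratio of each gene in those of 12 classes with at least 20 UMIs of it over both libraries and UMIs in each (points, with 95% counting intervals cut at -7). Red points were called higher, blue points lower and grey points neither; Cxcr6 lies below 0 in all 12 classes drawn and Flt3 is grey in each of its classes.

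Cxcr6, the receptor of CXCL16, was lower in the main KO T cell-like classes. gamma-delta T cell-like cells had the highest level, with 778 CPM (667 to 903) in KO and 1017 CPM (892 to 1155) in WT. CD4 T cell-like cells had 583 UMIs in 329 cells and 409 CPM (376 to 444) in KO, and 1973 UMIs in 663 cells and 656 CPM (627 to 686) in WT, with a log2 ratio of -0.68 (-0.82 to -0.55). The CD8 T cell-like class had 577 UMIs in 292 cells and 370 CPM (340 to 401) in KO, and 4343 UMIs in 1399 cells and 555 CPM (539 to 572) in WT, with a log2 ratio of -0.59 (-0.72 to -0.46). Both were called lower, where 3.3% and 3.57% of all genes tested in these classes were.

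The gamma-delta ratio of -0.39 (-0.68 to -0.10) and the regulatory ratio of -0.45 (-1.07 to 0.18) had the same sign but were not called. Regulatory T cell-like cells had 41.0 CPM in KO and 56.0 CPM in WT, far below the CD8, CD4 and gamma-delta T cell-like cells, and the Lef1-led T cell-like cluster had 2 UMIs in 38 KO cells and 17 UMIs in 128 WT cells. Summed over all T cell-like cells, Cxcr6 had 304 CPM (289 to 321) in KO and 538 CPM (525 to 551) in WT and a log2 ratio of -0.82 (-0.91 to -0.74), where 3.03% of all tested genes were called lower. This sum also carries the different make-up of the T cell-like cells in the 2 libraries. With equal weight for the CD8, CD4, regulatory and gamma-delta classes the log2 ratio was -0.53.

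The lower level in CD8 and CD4 T cell-like cells was spread over the cells. Of the CD8 T cell-like cells, 67.1% in KO (61.4 to 72.5) and 80.3% in WT (78.1 to 82.3) had a Cxcr6 UMI, and so did 45.0% (39.1 to 50.9) and 57.9% (55.2 to 60.5) after thinning to 2000 UMIs. In CD4 T cell-like cells the thinned shares were 45.7% (40.1 to 51.4) in KO and 59.4% (55.3 to 63.4) in WT. Thinned B cell-like cells had a share of 0% in KO (0 to 1.11) and 1.20% in WT. Cells with several UMIs were fewer in KO: among CD8 T cell-like cells 32 of 292 in KO and 340 of 1399 in WT held 5 to 19 Cxcr6 UMIs, and among CD4 T cell-like cells 37 of 329 in KO and 167 of 663 in WT did. Both clusters of the CD8 class had a lower level in KO, with log2 ratios of -0.59 (-0.73 to -0.46) and -0.66 (-1.05 to -0.29). Among the dividing cells, those with a Cd3 or Trac UMI had 242 CPM (222 to 263) in KO and 285 CPM (267 to 304) in WT.

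**Figure D4:**
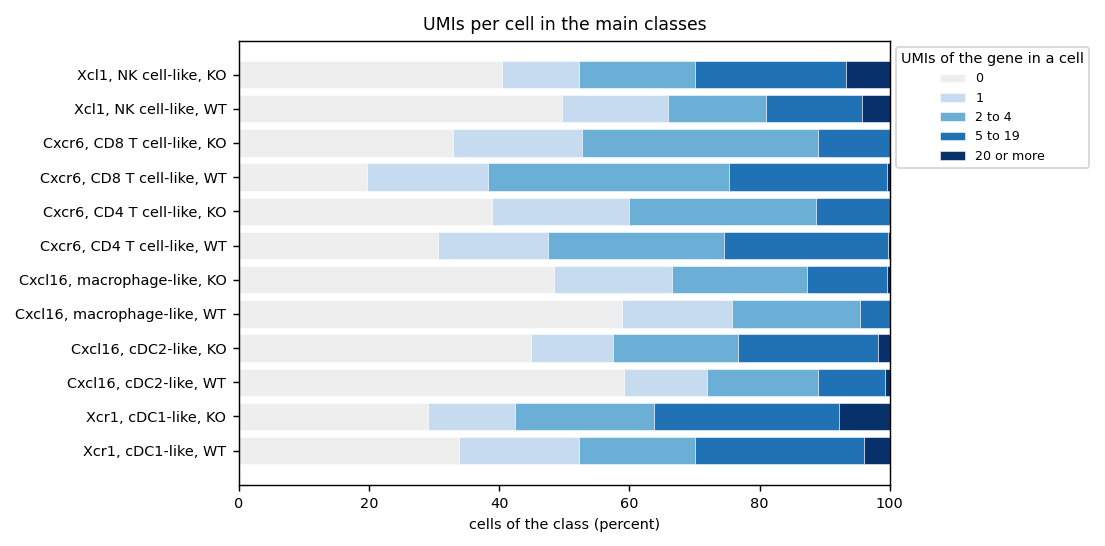
Share of cells of a class (percent, x axis) by the number of UMIs of the named gene in the cell, from 0 (pale) to 20 or more (dark), with KO above WT for each gene and class. Cells with 5 to 19 Cxcr6 UMIs are fewer in KO than in WT in CD8 and CD4 T cell-like cells, and cells with no Cxcl16 UMI are fewer in KO in macrophage-like and cDC2-like cells.

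NK cell-like cells had 48 Cxcr6 UMIs and 28.7 CPM (21.2 to 38.1) in KO, and 137 UMIs and 95.05 CPM (79.8 to 112) in WT, with a log2 ratio of -1.73 (-2.23 to -1.24) that was called lower where 4.36% of all tested genes were. Of the T cell list 4 of 8 genes were called lower in these cells, with a sum of 1546 CPM in KO and 2259 CPM in WT. Of the CD8 T cell list 5 of 6 were, with a sum of 751 CPM in KO and 1327 CPM in WT. The part of these genes in the Cxcr6 difference was not tested. In the 199 KO and 177 WT NK cell-like cells with no UMI of the Cd3 genes, Trac, Cd8a or Cd8b1, Cxcr6 had 13 and 17 UMIs, or 14.4 CPM (7.64 to 24.6) and 29.9 CPM (17.4 to 47.8), and the log2 ratio of -1.06 (-2.22 to 0.07) no longer excluded 0. Most of the Cxcr6 UMIs of this class, 35 of 48 in KO and 120 of 137 in WT, were in the cells with such a marker.

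Cxcr6 was called lower in 12 of the 14 classes tested, among them classes that should lack it. Macrophage-like cells had 1.55 CPM in KO and 18.0 CPM in WT, with 6.43% of all genes tested there called lower, and cDC2-like cells had 1.80 and 15.02 CPM. In pDC-like, monocyte-like and neutrophil-like cells, where it was also called lower, 4.6%, 4.44% and 8.26% of all tested genes were, and the neutrophil-like cells had 0 UMIs in KO and 29 UMIs in WT. B cell-like cells had 0.787 CPM in KO and 6.26 CPM in WT. T cell marker genes were lower in the same cells: in macrophage-like cells the T cell list summed to 40.4 CPM in KO and 219 CPM in WT, with 7 of 8 called lower, and in cDC2-like cells to 27.0 CPM in KO and 220 CPM in WT, with 8 of 8 called lower, and none of the 8 genes was at 0 in either library. Macrophage-like cells with no UMI of the Cd3 genes or Trac had 3 Cxcr6 UMIs in KO and 15 UMIs in WT, or 0.362 CPM and 4.21 CPM. In CD8 and CD4 T cell-like cells themselves the T cell list had log2 ratios of -0.11 and -0.13, with 1 of 8 called higher in CD8 and 0 of 8 called in CD4 T cell-like cells.

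Over whole libraries, 5 of the 6 genes were called. Over all kept cells, Xcl1 had 63.7 CPM in KO and 63.4 CPM in WT, Xcr1 had 39.4 and 20.3 CPM, and Flt3 had 57.1 and 31.7 CPM. Cxcl16 had 185 CPM in KO and 80.9 CPM in WT, Flt3l had 10.5 and 19.9 CPM, and Cxcr6 had 38.5 and 171 CPM. By the same rule 3 members were called higher, where 12.0% of all tested genes were, and 2 were called lower, where 17.5% were. Among the 6 genes Xcl1 alone was within counting error, with a log2 ratio of 0.01 (-0.06 to 0.07).

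Exchanging the class sizes alone gave most of the whole-library log2 ratio of each gene except Xcl1. The size of a class is here its share of all UMIs, so it carries both the number of its cells and their depth. Giving the WT levels to the class sizes of KO changed Xcr1 by a log2 ratio of 0.73, out of 0.95 observed, Flt3 by 0.68 out of 0.85, Flt3l by -0.77 out of -0.92, Cxcl16 by 0.79 out of 1.19 and Cxcr6 by -1.27 out of -2.15. For Xcl1 the class sizes alone gave -0.42, and the KO levels at WT class sizes gave 0.68. Unnamed clusters entered as 1 class, so that their own make-up counts as a level; they held 39.2% of the KO and 42.9% of the WT Xcl1 UMIs.

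**Figure D5:**
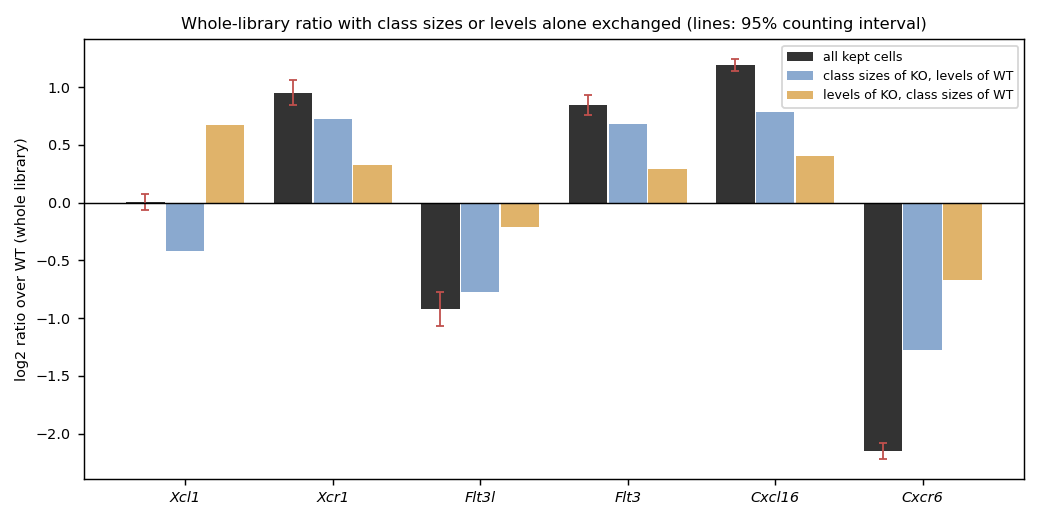
Whole-library log2 ratio over WT for each gene (dark bars, with 95% counting intervals), beside the ratio when only the class sizes (blue) or only the levels within classes (yellow) are those of KO. Class sizes are shares of UMIs and not of cells. The blue bar is larger than the yellow bar for 5 genes, and for Xcl1 they point in opposite directions.

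The make-up of each gene's RNA by class differed accordingly. NK cell-like cells held 52.9% of the KO and 41.5% of the WT Xcl1 UMIs, and CD8 T cell-like cells held 2.64% and 9.27%. cDC1-like cells held 85.7% of the KO and 69.7% of the WT Xcr1 UMIs. T cell-like cells held 31.2% of the KO and 47.8% of the WT Flt3l UMIs, and conventional and migratory DC-like cells held 30.8% and 9.17%. Migratory DC-like cells held 44.9% of the KO and 43.0% of the WT Cxcl16 UMIs, followed by cDC2-like cells with 28.5% and 20.9% and macrophage-like cells with 16.1% and 13.4%. CD8 T cell-like cells held 26.8% of the KO and 46.9% of the WT Cxcr6 UMIs. In KO, T cell-like and these dendritic cells thus held nearly equal shares of the Flt3l UMIs.

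Some of the 6 genes were found together in single cells. Xcl1 and Flt3l were found together in 28 of 314 KO and 24 of 353 WT NK cell-like cells, out of 187 KO and 178 WT cells with Xcl1, and Flt3l was in 9.45% of KO and 9.71% of WT cells without it. The cells with Xcl1 were deeper, with medians of 5300 and 4319 UMIs against 3491 and 2925 UMIs. Among CD8 T cell-like cells with Xcl1, Cxcr6 was in 75.8% of 33 in KO and 87.6% of 129 in WT, and in 66.0% and 79.5% of those without. Cxcl16 and its receptor gene Cxcr6 were found together in 13 of 329 KO and 8 of 663 WT CD4 T cell-like cells. Only 17 KO and 12 WT cells of this class had Cxcl16. Cxcr6 was in 76.5% and 66.7% of them, and in 60.3% and 69.4% of the cells without Cxcl16. Xcr1 and Flt3 were found together in 199 of 337 KO and 112 of 201 WT cDC1-like cells. Because detection rises with depth, these are descriptions of the libraries at these depths.

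The 4 lists of genes around the pairs were read in the classes that carry them. In NK cell-like cells, of 14 tested genes for signals between NK cells, T cells and dendritic cells 1 was lower, the interleukin-18 receptor chain Il18r1 with a log2 ratio of -0.50, and none was higher. Of all genes tested in these cells, 2.68% were called higher and 4.36% lower. The list's median log2 ratio was 0.13, against -0.02 over all genes. In cDC1-like cells 1 of 17 was higher and 3 were lower, where 3.33% and 3.17% of all tested genes were, with a median of -0.06 against 0.01 over all genes. The lower ones were Ccl5, Ifng and Il18r1, of which the cytokine gene Ifng had 9 UMIs in KO and 22 UMIs in WT. Lymphocyte markers were lower in these KO cells too, 6 of 8 of the T cell list, and their part was not tested.

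In cDC2-like cells 5 of the 18 genes of this list were higher and 6 were lower, where 4.25% and 5.79% of all tested genes were, with a median of 0.01 against -0.03. Of the migratory DC genes, which summed to 447 CPM in KO cells and 284 CPM in WT cells of this class, 4 of 10 were higher, and their part was not tested. The CXCR3 ligands Cxcl10 and Cxcl9 were higher, with 527 CPM in KO and 306 CPM in WT for Cxcl10 and a log2 ratio of 0.60 for Cxcl9, and Il12b, a subunit of interleukin-12, had 32 UMIs in KO and 0 in WT. Il15, the cytokine that sustains NK cells, was higher at 1.32. The lower ones were Cxcr3, Ifng, Il12a, Il2rb, Ccl5 and Il18r1, beside the lower T cell list given above for these cells. In macrophage-like cells 2 of 18 were higher, Il15 at 1.17 and Cxcl10 at 0.84, and 5 were lower, where 6.64% and 6.43% of all tested genes were. The lower ones were Il18r1, Ifng, Il2rb, Cxcr3 and Ccl5, all of them genes that T and NK cells also express. For them the T cell list given above for macrophage-like cells moved the same way.

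Of the genes for FLT3 signalling and related growth factor receptors, 0 of 16 were called over conventional and migratory DC-like cells together, where 3.42% of all tested genes were called higher and 5.75% lower, with a median log2 ratio of 0.14 against -0.04 over all genes. In cDC1-like cells 2 of 15 were higher, the lymphoid and dendritic transcription factor Ikzf1 at 0.64 and Csf2rb, the shared beta chain of the GM-CSF receptor, at 0.51. None was lower, and 3.33% of all genes tested there were called higher and 3.17% lower. In T cell-like cells 8 of 17 were higher and none was lower, where 10.2% of all tested genes were called higher, with a median of 0.46 against 0.06. They included the cytokine feedback inhibitor Socs1 at 0.92 and Stat3 at 0.62, and also Spi1 and Csf2ra, which are genes of myeloid cells, at 1.004 and 0.58. In regulatory T cell-like cells, a larger part of the T cell-like cells in KO than in WT, 1 gene of the list was higher and 6 of 16 were lower, Spi1 and Csf2ra among them, where 4.41% and 5.98% of all tested genes were, with a median of -0.43. In CD4 T cell-like cells 2 of 16 were higher and none was lower, where 4.14% and 3.3% of all tested genes were. In CD8 T cell-like cells 4 of 14 were higher, Socs1 and Spi1 among them, and none was lower. There 5.07% of all tested genes were called higher and 3.57% lower, and the median of the list was 0.25. The pooled count also carries the make-up of the T cell-like cells, and the part of the dendritic cell markers given above for all T cell-like cells was not tested.

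The genes of CXCL16 shedding and scavenger receptors moved little. In macrophage-like cells 1 of 6 was called, the scavenger receptor Cd36, lower at -0.57, while the sheddase genes Adam10 and Adam17 were not called, and the median was 0.10 against 0.00. Of all genes tested in these cells, 6.64% were called higher and 6.43% lower. In cDC2-like cells 0 of 6 were called, where 4.25% of all tested genes were called higher and 5.79% lower. Of the residence and egress genes, 11 of the 12 listed symbols were in the files, and in CD8 T cell-like cells 4 of 11 were higher and none was lower, where 5.07% and 3.57% of all tested genes were, with a median of 0.21 against 0.00. The higher ones included Itgae, an integrin chain of resident T cells, with 17 UMIs in each library and a log2 ratio of 2.32, and genes of recirculating T cells, Ccr7 (1.06), which encodes a receptor for homing to lymph nodes, and the transcription factor gene Klf2 (0.999). In CD4 T cell-like cells Ccr7 was higher at 0.54 and the integrin gene Itga1 lower at -1.19, with 1 of 10 called in each direction, where 4.14% and 3.3% of all tested genes were.

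Genes with the most similar pattern were ranked by Pearson correlation of log2(CPM + 1) over 20 units, 10 classes in 2 libraries, among 12486 genes; the units share their libraries and the cell types recur, so the values are descriptions. Xcl1 was followed most closely by Prf1 (perforin, 0.97), Arl4d (0.95) and Itga2 (0.94). Xcr1 ran with Tlr11 (0.96), Fam149a (0.95) and Gpr33 (0.93), and Cxcr6 with Trac (0.99), Bcl11b (0.99) and Themis (0.99). For Cxcl16 the nearest genes were Bcl2a1a (0.98) and Spire1 (0.95), for Flt3 Mtmr14 (0.94), Syngr2 (0.94) and Tnni2 (0.93), and for Flt3l Cdkn2aipnl (0.98), Dennd1c (0.96) and Gm15472 (0.95).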

How the data were processed

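Droplet 3' libraries of sorted CD45+ tumour cells were analysed, 1 KO and 1 WT, each from 3 pooled mice, per the labels' protocols. The authors deposited raw UMI counts per gene and barcode, without normalization, and the smallest barcode total was 500 UMIs. Per the submitters' processing notes, bcl2fastq 2.20, Cell Ranger 3.1.0, Seurat 4.0.1 and GRCm38 were used, whereas the file headers name Cell Ranger 4.0.0. No source used here says whether intronic or antisense reads were counted.

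A barcode was kept with at least 200 genes and a mitochondrial share of UMIs of at most 15%. Scrublet, with an expected rate of 0.06, marked 2 KO and 0 WT cells, which were removed; it therefore did not work as a doublet filter, and an alternative removed the 6% highest scores. Counts were scaled to 10000 per cell, and 2000 variable genes without the 6 members, 30 principal components, 15 neighbours and Leiden resolution 1.0 were used (scanpy 1.11.5). A cluster was named from at least 3 detected markers; clusters led by cell cycle genes, with a mean Scrublet score of at least 0.15, of low UMI counts without own markers among the 10 leading genes, or with more markers of another class among those 10 stayed unnamed, by limits set after the clusters had been seen.

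UMIs were summed per class and library. Intervals are 95% Poisson, binomial (Clopper-Pearson) or conditional binomial and cover counting error only. All 55450 identifiers matched GENCODE M21. The intervals and calls were tested on simulated Poisson counts, the model that the intervals assume. The simulation left out the gathering of UMIs in single cells, so it cannot show how well the intervals hold for these data. The members and lists were chosen with earlier results of these data known. Named beside the 6 members were list genes called in a member's main classes, at most 6 a list by size of the log2 ratio, the 3 most similar genes, Kcnj2 and Lyz2; called list genes beyond those 6, Adam10, Adam17, Socs1, Stat3, Spi1 and Csf2ra were chosen after their values were seen. Subdivisions by marker UMIs were also chosen then. Some genes that this rule names are not reported here.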

Additional observations from a re-analysis of the deposited data

Results flagged for a closer look

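Members were called in opposite directions in different classes for 3 genes, and these differences between classes were not tested. Xcl1 had log2 ratios of 0.56 in CD8 T cell-like cells and 3.22 in the Lef1-led T cell-like cluster, against -1.96 in cDC2-like cells and -3.62 in macrophage-like cells. Xcr1 had 1.23 in cDC2-like cells and -2.44 in migratory DC-like cells, where single cells held 26 of the 63 KO UMIs and 31 of the 37 WT UMIs. Cxcl16 had 1.55 in CD4 T cell-like cells, 0.63 in cDC2-like cells and 0.59 in macrophage-like cells, against -1.23 in melanoma-like cells.

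Members were also found in the barcodes that the filters had removed, 670 in KO with 1044800 UMIs and 741 in WT with 901075 UMIs. These KO barcodes held 22 Xcl1, 29 Xcr1, 12 Flt3l, 79 Flt3, 145 Cxcl16 and 23 Cxcr6 UMIs. The WT barcodes held 24 Xcl1, 10 Xcr1, 32 Flt3l, 23 Flt3, 39 Cxcl16 and 60 Cxcr6 UMIs. All 12 values are above the 3 counts taken as the floor.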

How the results depend on the processing

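No paired analysis was possible because each genotype has 1 library and the labels give no shared replicate numbers. Of 120 alternative values of the log2 ratios, 96 stayed within the counting interval of the reported value, 24 moved outside it and 0 of the called ratios changed sign. Cxcl16 in macrophage-like cells ran from 0.46 to 0.69 over 14 alternatives, but its call was lost under 4 of them, given with that result: Leiden resolution 0.6, members among the variable genes, equal weight for each cell and thinning to 1000 UMIs. The cause of the shifts below was not tested.

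Removing the 6% highest Scrublet scores gave 0.074 for Xcl1 in NK cell-like cells, 0.26 for Flt3 in dendritic cells and -0.67 for Cxcr6 in T cell-like cells. Equal weight for each cell gave 0.29 for Xcl1 and -1.14 for Cxcr6 in NK cell-like cells and -0.59 for Cxcr6 in T cell-like cells. The mitochondrial limit of 10% gave 0.40 for Xcl1 in CD8 T cell-like cells, short of a call. Without the 5 cells of each library with the most UMIs, Xcl1 had 0.40 in NK cell-like and 0.19 in CD8 T cell-like cells. Thinning to 1000 UMIs gave 0.10 for Xcl1 in CD8 T cell-like cells, from 13 KO and 58 WT UMIs, 0.36 for Flt3l, 0.0096 for Flt3 and -0.64 for Cxcr6 in T cell-like cells. Xcr1 in cDC1-like cells had 0.11 at a mitochondrial limit of 10% and 0.087 with at least 500 genes. Without B cell-like cells the whole-library ratios were -0.11 for Xcl1, 0.84 for Xcr1, 0.75 for Flt3, 1.08 for Cxcl16 and -2.26 for Cxcr6.

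Among alternatives chosen after seeing the data, joining the unnamed clusters to their highest-scoring class gave 1.28 for Xcl1 in CD8 T cell-like cells, from 1477 KO and 1744 WT UMIs, and 0.36 for Flt3. NK cell-like cells without T cell marker UMIs gave 0.33 for Xcl1 and -1.06 for Cxcr6. Equal weight for each T cell class gave -0.53 for Cxcr6. A limit of 1 on the log2 ratio called 254 instead of 638 genes in NK cell-like cells, 362 instead of 932 in CD8 T cell-like, 287 instead of 662 in cDC1-like, 469 instead of 1226 in cDC2-like, 545 instead of 1476 in macrophage-like, 692 instead of 1660 in all T cell-like and 495 instead of 1270 in all conventional and migratory DC-like cells; Xcl1 in CD8 T cell-like cells, Cxcl16 in macrophage-like and cDC2-like cells and Cxcr6 in CD8 and all T cell-like cells were then not called. Flt3l counts were low, with at most 4 UMIs in a T cell-like cell. The parts of depth and of the overlap with Gm45713 in this were not tested.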
